A study of Drosophila melanogaster with 8 samples.

Results

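The genes described here build and run the light response of the fly eye. A list of 39 genes was drawn up, and every clone annotated to one of them was kept if it had a ratio on at least 2 arrays of each day. The rule left 17 clones of 16 genes, out of 7166 clones and 4166 named genes that meet it on the whole array. The statistical test ran over 4563 clones in all, those present on 3 or more arrays per day, and took in 14 of the 17.

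In a fly photoreceptor, light turns rhodopsin, an opsin carrying a vitamin A-derived chromophore, into metarhodopsin, which activates a Gq protein. Gq switches on a phospholipase C, and the channels TRP and TRPL then open in the microvilli of the rhabdomere, the light-sensing organelle. Arrestins end the activity of metarhodopsin, and a cycle of lipid enzymes rebuilds the phosphoinositide that the phospholipase consumes.

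The flies were unmated males of the wild-type strain Oregon-R that entered the experiment at an age of 3 to 4 days. Treated flies of the day-14 arm ate pentylenetetrazole (PTZ, a convulsant) at 8 mg/ml for 7 days, then vigabatrin (VGB, an antiepileptic drug) at 24 mg/ml for 3 days, and then normal food for 4 days, while those of the day-10 arm were taken at the end of the VGB feeding. The control flies of each arm stayed on normal food and were taken on the same day. Heads were pooled, and each of the 4 arrays per day set a treated pool against a parallel control pool, with treated RNA in Cy5 in replicates 1 and 2 and in Cy3 in replicates 3 and 4. Because no arm received a single drug, PTZ and VGB cannot be told apart, and the day-14 arm differs from the day-10 arm in both drug-free time and age.

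Each value is a log2 ratio of treated over control heads, averaged over the spots of a clone, from which the median of all clones on that array was subtracted. A value of 0 is therefore the middle clone of that array. Array medians before subtraction lay between -0.48 and 0.24, and 8419 to 20241 spots per array had a ratio. The direction is likely and not certain: the deposited ratio was read as Cy5 over Cy3 because the labels list the Cy5 channel ahead of Cy3, and dye-swapped arrays had their sign reversed. After that reversal 12 of 16 pairs of arrays with opposite dyes correlated above 0 over all clones they share, at only 0.003 to 0.248. Pairs with the same dye orientation, which the reversal leaves as they were, correlated at 0.03 to 0.642. The 4 opposite-dye pairs below 0 lay between -0.141 and -0.107. They set day-10 replicate 3 against day-10 replicates 1 and 2, and day-10 replicate 2 against day-14 replicates 3 and 4. Ratios hold no expression level, so the head label could be checked only by the presence of filtered ratios for eye clones. Whole heads were used, so fewer photoreceptors and less RNA per photoreceptor cannot be told apart.

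No tested clone of the list passed the threshold on either day. At day 14, 0 of 14 clones had a limma adjusted p under 0.05, where 0% of the 4563 clones did. At day 10, 0 of 14 passed, where 3.02% of all clones did, 0.833% higher and 2.19% lower in treated heads. Without adjustment, 4 of the 14 had p under 0.05 at day 14, against 19.3% of all clones, and 1 of the 14 at day 10, against 20.9%. On each day 7 of the 14 fitted ratios lay above 0, and their median was -0.01 at day 14 and 0.01 at day 10, where the median of all tested clones was -0.01 and 0.01. When day 14 was fitted on its own 4 arrays, 3 of the 14 passed, with rdgA and laza higher and pinta lower, where 11.6% of all clones did, 5.65% higher and 5.98% lower. The intervals still allow moderate changes: 95% intervals, not adjusted for the number of clones, reached from -0.78 to 0.76 at day 14 and from -0.75 to 0.91 at day 10.

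**Figure D1:**
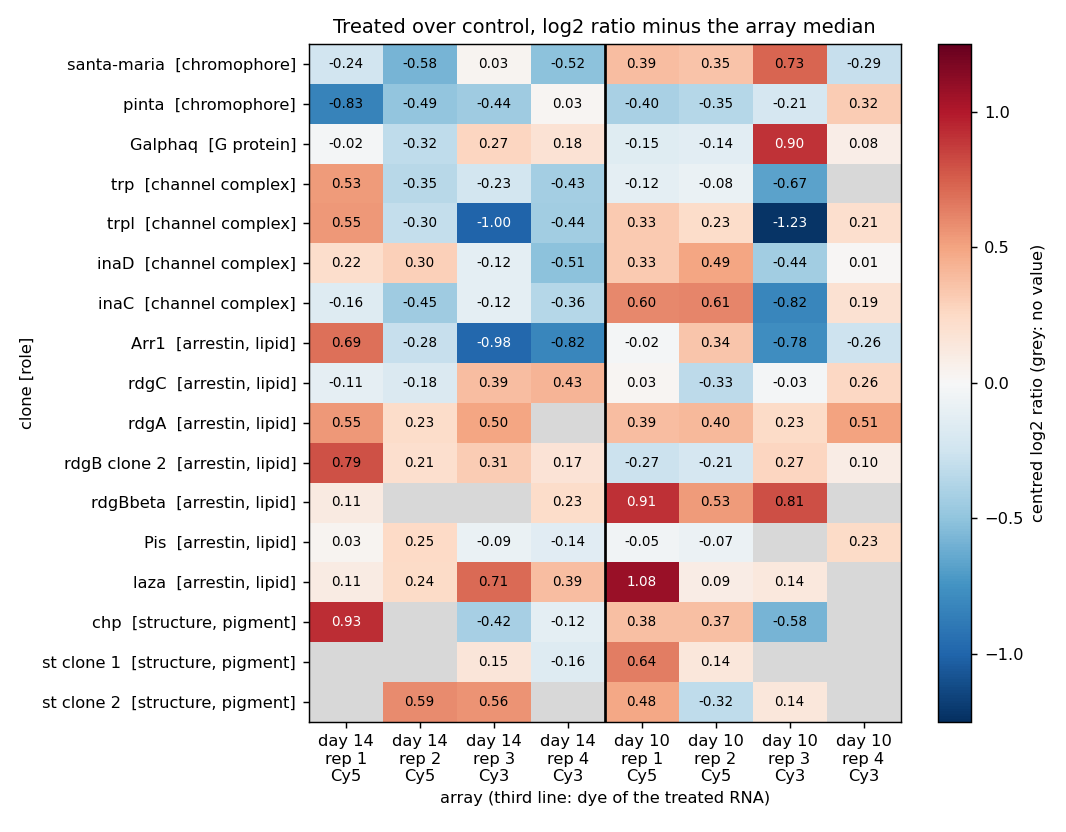
Log2 ratio of treated over control heads, after subtraction of the array median, for the 17 clones that meet the rule (rows, grouped by role) on each of the 8 arrays (columns, day 14 left of day 10, with the dye of the treated RNA). Grey cells had no ratio; rdgA and laza are above 0 in every filled cell, and Arr1 is below 0 on all 4 arrays with treated RNA in Cy3.

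Opsins themselves are almost missing from these data. The annotation used here names no clone for ninaE, which encodes the main opsin Rh1, or for the opsins Rh2, Rh3, Rh4, Rh5 and Rh6. Rh7, an opsin with a role in the brain clock, had a clone that failed the rule, with 0.26 on 1 day-14 array and 1.53, 0.09 and -0.59 on 3 day-10 arrays. ninaG, an oxidoreductase of chromophore synthesis, also failed, with -0.02 on 1 day-14 array and -0.08, 0.04 and -0.68 on 3 day-10 arrays. No clone was named for ninaA, the chaperone of Rh1, for ninaB, which cleaves carotenoids, or for ninaD, a carotenoid receptor. Both remaining genes of the group serve the chromophore and were tested.

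santa-maria encodes a scavenger receptor that takes up carotenoids for chromophore synthesis. Its ratios were -0.24, -0.58, 0.03 and -0.52 on the day-14 arrays and 0.39, 0.35, 0.73 and -0.29 on the day-10 arrays (replicates 1 to 4). At day 14, 3 of 4 arrays were below 0, at day 10, 3 of 4 were above 0, and the days overlap through day-10 replicate 4. The fitted ratio was -0.33 ± 0.16 at day 14 (SE, limma adjusted p = 0.316) and 0.29 ± 0.16 at day 10 (adjusted p = 0.350). Its difference between days, day 14 minus day 10, was -0.62 ± 0.23 and did not pass (limma adjusted p = 0.413). That difference was -0.24 with the median of neighbouring clones subtracted, and -0.16 if the submitters had turned the swapped arrays before deposit. The day-10 ratio was 0.12 without replicate 3 and 0.53 without replicate 4.

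pinta encodes a retinoid-binding protein of the retinal pigment cells. Its ratios were -0.83, -0.49, -0.44 and 0.03 at day 14 and -0.40, -0.35, -0.21 and 0.32 at day 10. On each day replicates 1 to 3 were below 0 and replicate 4 was above it. The fit gave -0.44 ± 0.12 at day 14, 0.740-fold, with a 95% interval of -0.71 to -0.16, and missed the threshold (limma adjusted p = 0.147). At day 10 it gave -0.16 ± 0.12 (adjusted p = 0.506).

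Of the G protein and phospholipase group, 1 of 5 genes could be read. Galphaq encodes the alpha subunit that rhodopsin activates. Its tested clone had -0.02, -0.32, 0.27 and 0.18 at day 14 and -0.15, -0.14, 0.90 and 0.08 at day 10. On both days it was below 0 in replicates 1 and 2 and above 0 in replicates 3 and 4, so its sign followed the dye orientation. The fitted ratios were 0.03 ± 0.13 at day 14 and 0.17 ± 0.13 at day 10 (limma adjusted p = 0.935 and 0.513). The second Galphaq clone failed the rule, with -0.23 on 1 day-14 array and 0.01, -0.03 and -0.38 on 3 day-10 arrays, and on day-10 replicate 3 it lay opposite to the tested clone. Gbeta76C and Ggamma30A, the partner subunits, norpA, the phospholipase C itself, and stops, which maintains the norpA protein, had no named clone.

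The channel group gave ratios for both light-sensitive channels and for the scaffold and kinase of the signalling complex. trp, the main calcium-permeable channel, had 0.53, -0.35, -0.23 and -0.43 at day 14 and -0.12, -0.08 and -0.67 at day 10, where replicate 4 had no ratio. It was below 0 on 6 of 7 arrays, and day-14 replicate 1 was the exception. The fitted ratio was -0.12 ± 0.14 at day 14 (limma adjusted p = 0.696) and -0.37 ± 0.17 at day 10 (adjusted p = 0.247).

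The second channel gene, trpl, was fitted at -0.30 ± 0.22 at day 14 and -0.11 ± 0.22 at day 10 (limma adjusted p = 0.494 and 0.816). Its day-10 value depends on replicate 3, which stood at -1.23 while the other day-10 arrays lay between 0.21 and 0.33; without it the day-10 ratio was 0.17. inaD, the PDZ scaffold that holds channel, kinase and phospholipase together, was fitted at -0.03 ± 0.11 at day 14 and 0.10 ± 0.11 at day 10 (adjusted p = 0.924 and 0.680). inaC, the eye protein kinase C that acts in deactivation, was fitted at -0.27 ± 0.18 at day 14 and 0.15 ± 0.18 at day 10 (adjusted p = 0.463 and 0.717). All 4 fitted ratios of the group were below 0 at day 14, with a median of -0.20, and 2 of 4 at day 10, with a median of -0.01. Among all 4563 tested clones, 2185 were above 0 at day 14 and 2332 at day 10, and the group was not tested as a set. inaF-B, which TRP needs, and ninaC, a myosin kinase of the rhabdomere, had no named clone.

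Of the shut-off genes, Arr1 encodes an arrestin that binds metarhodopsin. Its ratios were 0.69, -0.28, -0.98 and -0.82 at day 14 and -0.02, 0.34, -0.78 and -0.26 at day 10. They spread widely within a day, and on both days replicates 3 and 4, with treated RNA in Cy3, were the lower ones. The fitted ratio was -0.35 ± 0.16 at day 14 and -0.18 ± 0.16 at day 10 (limma adjusted p = 0.287 and 0.596). Arr2, the major arrestin, failed the rule, with 0.89 on day-14 replicate 1 and -0.06 on day-10 replicate 4 as its only ratios. rdgC, the phosphatase that removes phosphate from rhodopsin, was fitted at 0.13 ± 0.11 at day 14 and -0.02 ± 0.11 at day 10 (adjusted p = 0.558 and 0.945).

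The lipid enzymes rebuild the phosphoinositide pool. rdgA encodes the diacylglycerol kinase that turns diacylglycerol into phosphatidic acid. Its ratios were 0.55, 0.23 and 0.50 at day 14, where replicate 4 had none, and 0.39, 0.40, 0.23 and 0.51 at day 10. All 7 were above 0 and the days overlapped. The fit gave 0.43 ± 0.13 at day 14, 1.35-fold (95% interval 0.15 to 0.71, limma adjusted p = 0.153), and 0.38 ± 0.11 at day 10, 1.30-fold (0.14 to 0.62, adjusted p = 0.0814).

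laza encodes a phosphatidic acid phosphatase, which works against the step that rdgA catalyses. Its ratios were 0.11, 0.24, 0.71 and 0.39 at day 14 and 1.08, 0.09 and 0.14 at day 10, where replicate 4 had none. All 7 were above 0. The 1.08 of day-10 replicate 1 is the mean of spots that differed by 1.02, the widest gap among 105 spot pairs of the members, for which the median gap was 0.148. The fitted ratio was 0.36 ± 0.18 at day 14 and 0.44 ± 0.21 at day 10 (limma adjusted p = 0.309 and 0.270). Without day-10 replicate 1 the day-10 ratio was 0.11, and without replicates 2 or 3 it was 0.61 and 0.77.

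rdgB encodes the phosphatidylinositol transfer protein of the photoreceptor. Its tested clone had 0.79, 0.21, 0.31 and 0.17 at day 14 and -0.27, -0.21, 0.27 and 0.10 at day 10. All 4 day-14 arrays were above 0, day 10 was split, and the days overlap. The fitted ratio was 0.37 ± 0.14 at day 14 and -0.03 ± 0.14 at day 10 (limma adjusted p = 0.193 and 0.937), and the difference of 0.40 ± 0.19 did not pass (adjusted p = 0.485). The other rdgB clone failed the rule, with -0.08, 0.06 and -0.51 on day-14 replicates 2 to 4, each below the tested clone, and 0.55 on day-10 replicate 2, above it.

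rdgBbeta, a smaller relative of rdgB in the same transfer-protein family, met the rule but had too few arrays for the main test. Its ratios were 0.11 and 0.23 on day-14 replicates 1 and 4, and 0.91, 0.53 and 0.81 on day-10 replicates 1 to 3. All 5 were above 0, and the 3 day-10 values lay above both day-14 values. No share of clones with separate days was counted at this number of arrays. With clones admitted from 2 arrays of each day, the fit gave 0.17 ± 0.16 at day 14 (limma adjusted p = 0.679) and 0.77 ± 0.14 at day 10 (adjusted p = 0.0875), and the difference of -0.60 ± 0.22 did not pass (adjusted p = 0.441). Pis, the synthase of phosphatidylinositol, was fitted at 0.01 ± 0.11 at day 14 and 0.03 ± 0.13 at day 10 (adjusted p = 0.964 and 0.921). inaE, a diacylglycerol lipase, had no named clone. Of the 6 tested clones of the arrestin and lipid group, 5 were above 0 at day 14 and 3 at day 10, with medians of 0.25 and 0.01. Of all 4563 tested clones, 2185 were above 0 at day 14 and 2332 at day 10. The groups were not tested as sets.

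The structural and pigment genes were thinly covered. chp encodes chaoptin, an adhesion protein that holds the microvilli of the rhabdomere together. Its ratios were 0.93, -0.42 and -0.12 on day-14 replicates 1, 3 and 4, and 0.38, 0.37 and -0.58 on day-10 replicates 1 to 3. It was fitted at 0.31 ± 0.13 at day 14 and -0.12 ± 0.13 at day 10 (limma adjusted p = 0.243 and 0.659). The day-14 value was 0.13 without a dye term and 0.12 with print-block medians subtracted. With the median of neighbouring clones subtracted it was 0.0001. The pigment transporter gene st had a pair of clones that met the rule and were not in the main test. The first had 0.15 and -0.16 on day-14 replicates 3 and 4, and 0.64 and 0.14 on day-10 replicates 1 and 2. The second had 0.59 and 0.56 on day-14 replicates 2 and 3, and 0.48, -0.32 and 0.14 on day-10 replicates 1 to 3. Its 2 day-14 values lay above its 3 day-10 values. Here too, the share of all clones with separate days at this number of arrays was not counted. With clones admitted from 2 arrays of each day, the second st clone was fitted at 0.57 ± 0.22 at day 14 and 0.11 ± 0.19 at day 10 (limma adjusted p = 0.288 and 0.803). On day-14 replicate 3, the only day-14 array with both st clones, the clones read 0.15 and 0.56. No clone was named for eys, which opens the space between rhabdomeres, retinin, a corneal protein, ort, the histamine receptor of the photoreceptor's targets, or w, the transporter partner of st.

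**Figure D2:**
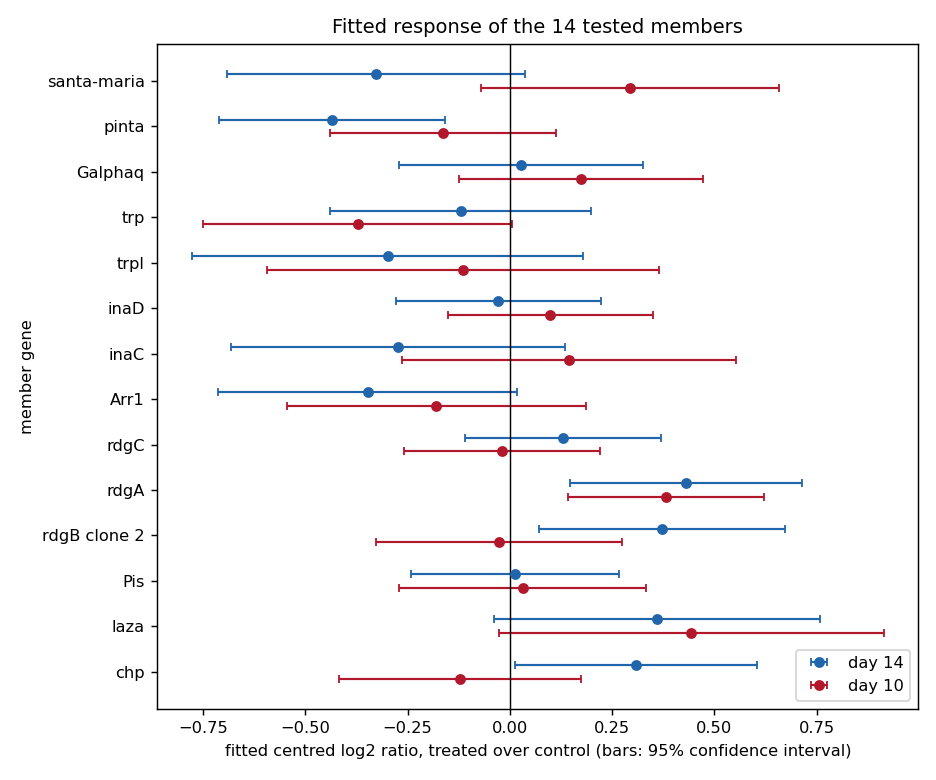
Fitted log2 ratio of treated over control heads for the 14 tested clones (rows), with blue for day 14 above red for day 10. Bars are 95% intervals of the limma fit, not adjusted for the number of clones; at day 14 those of pinta, rdgA, rdgB and chp leave 0 out, and at day 10 only that of rdgA does.

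Comparing the days directly, 0 of 14 members passed for day 14 minus day 10 (smallest limma adjusted p = 0.413), where 0% of all clones did. Without adjustment 1 of the 14, santa-maria, had p under 0.05, against 10.5% of all clones. The days failed to overlap in 0 of the 14, where 8.5% of the tested clones had separate days.

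The mean of both days, a contrast chosen after the values were seen, gave the single call of the list. rdgA was higher in treated heads at 0.41 ± 0.08, 1.32-fold, with a 95% interval of 0.22 to 0.59 (limma adjusted p = 0.0244). It was 1 of 14, where 6.6% of all clones passed, 1.71% higher and 4.89% lower. laza had nearly the same value, 0.40 ± 0.14, and did not pass (adjusted p = 0.106), nor did pinta at -0.30 ± 0.09 (adjusted p = 0.0675). rdgA and laza were above the array median on every array measured, as 3.42% of tested clones were, and no member was below it on every array. The rdgA call was lost without any 1 of 5 arrays. The limma adjusted p was 0.0509 without day-10 replicate 1, 0.0616 without day-10 replicate 4 and 0.0584 without day-14 replicate 1. It was 0.142 without day-14 replicate 3 and 0.0638 without day-14 replicate 4. rdgA had no ratio on day-14 replicate 4, so there its adjusted p moved only through the other clones.

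The day-10 values also differed by place on the slide. Print blocks were inferred from the order of the spots, and all 38 clones higher at day 10 lay in blocks 1 to 16, which hold 40.1% of the tested clones. The day-10 median was 0.11 in those blocks and -0.04 in the others, and rdgA, laza and rdgBbeta lie in blocks 10, 13 and 15. With the median of neighbouring clones subtracted in place of the array median, rdgA read 0.59, -0.01 and 0.67 on day-14 replicates 1 to 3 and -0.24, -0.12, 0.46 and 0.34 on the day-10 arrays. Its fitted ratio was then 0.50 at day 14 and 0.11 at day 10 (limma adjusted p = 0.159 and 0.735), and its mean of both days was 0.30 (adjusted p = 0.0915). laza then stood at 0.29 at day 14 and 0.01 at day 10, and rdgBbeta read -0.20 and 0.03 at day 14 and 0.30, -0.05 and 0.81 at day 10. pinta, in block 43, stood at -0.77 at day 14 (adjusted p = 0.0898), and its mean of both days passed at -0.47 (limma adjusted p = 0.0330). That fit had no local value for pinta on day-10 replicate 4, its highest array at 0.32 before local centring. The share of all clones passing for the mean of both days under local centring was not counted. In the main fit 4.89% passed as lower.

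**Figure D3:**
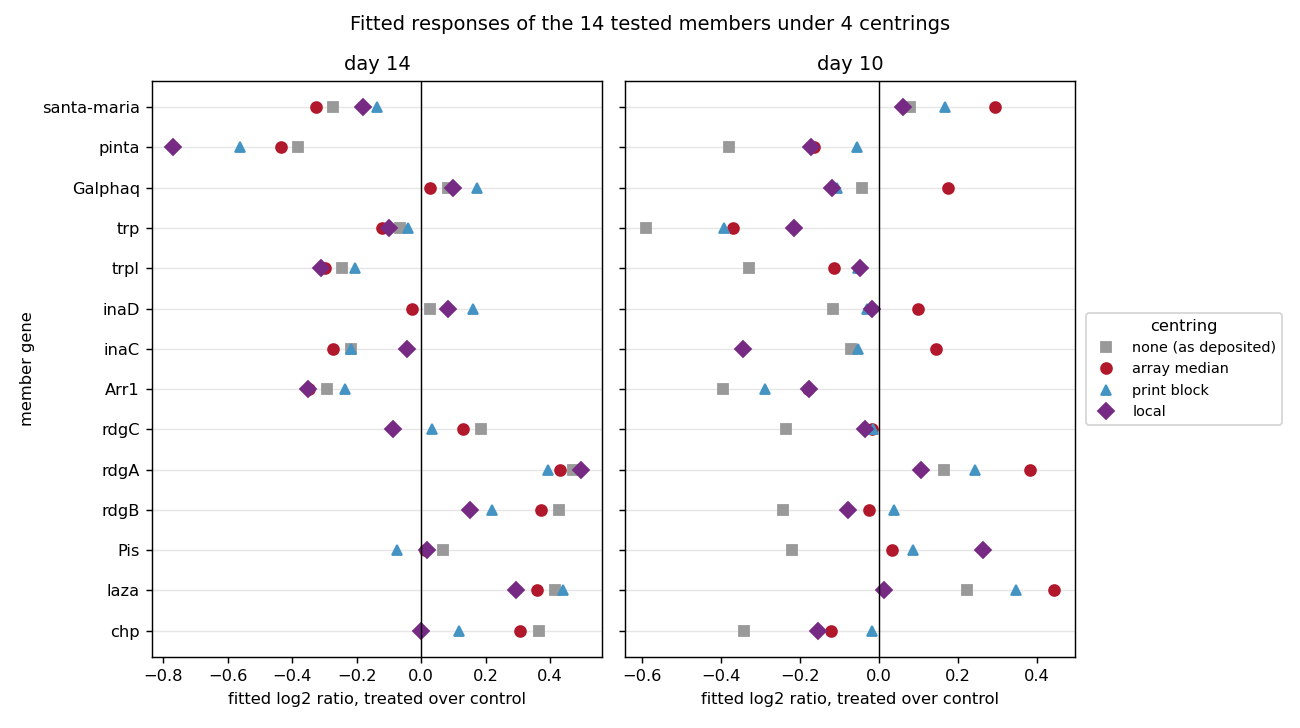
Fitted log2 ratio of treated over control heads (x axis) of the 14 tested clones (rows) at day 14 (left) and day 10 (right), with no centring, with the array median, with print-block medians and with the median of neighbouring clones subtracted. At day 10 the red array-median points of rdgA and laza, at 0.38 and 0.44, lie well right of the purple local ones, at 0.11 and 0.01.

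The members were also compared by dye orientation. The dye term of the fit is the ratio on arrays with treated RNA in Cy5 minus that on arrays with treated RNA in Cy3. For it 0 of 14 members passed, where 0.307% of all clones did, but 7 of 14 had an unadjusted p under 0.05, against 20.5% of all clones. chp averaged 0.56 with treated RNA in Cy5 and -0.37 in Cy3, a fitted difference of 1.08 ± 0.19 (limma adjusted p = 0.0736). Arr1 averaged 0.18 in Cy5 and -0.71 in Cy3 (0.89 ± 0.23, adjusted p = 0.0961). inaD averaged 0.34 in Cy5 and -0.26 in Cy3 (0.60 ± 0.16, adjusted p = 0.0979). These are a microvillar adhesion protein, an arrestin and a scaffold, and none of them passed.

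None of the 4 clones of the channel group passed. Their dye terms over both days were all above 0, with a median of 0.54, against 0.01 for all tested clones. trpl differed by 0.82 ± 0.30, trp by 0.48 ± 0.22 and inaC by 0.43 ± 0.26 (limma adjusted p = 0.181, 0.264 and 0.386). With each day fitted alone, trp, trpl and inaD kept a dye term above 0 on both days, while that of inaC was -0.06 at day 14 and 0.92 at day 10. Galphaq, pinta and rdgC lay on the other side, at -0.52 ± 0.19, -0.44 ± 0.18 and -0.41 ± 0.15 (adjusted p = 0.180, 0.198 and 0.181). The orientations did not overlap for inaD and chp, higher in Cy5, where 7.98% of tested clones showed this, and for Galphaq, lower in Cy5, where 9.49% did. rdgA and laza differed by -0.03 and -0.05.

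**Figure D4:**
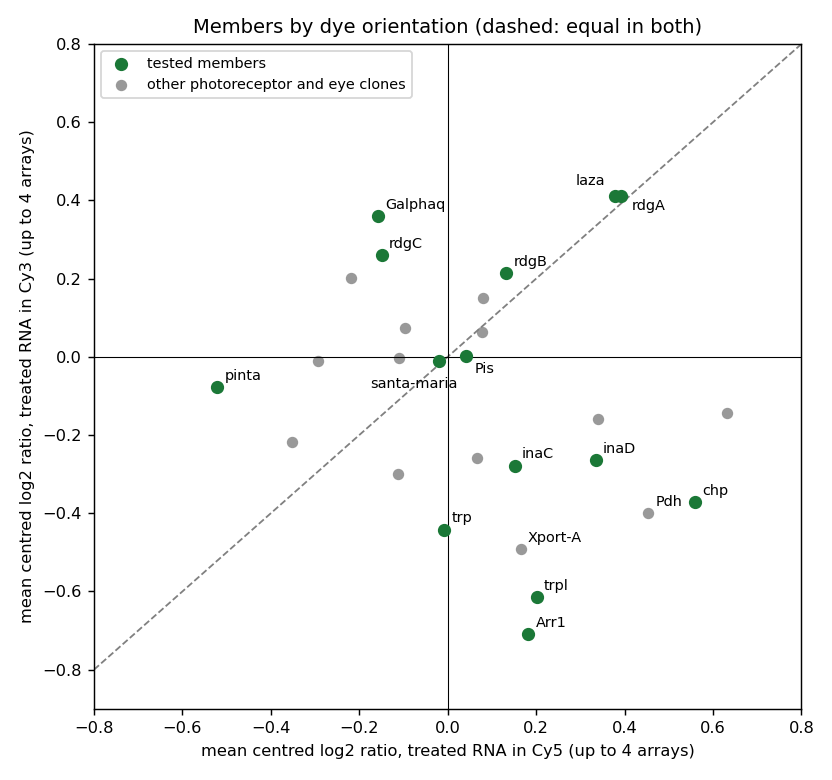
Mean log2 ratio of treated over control heads, after subtraction of the array median, on arrays with treated RNA in Cy5 (x axis) and in Cy3 (y axis), for the 14 tested members (green) and 13 clones of other photoreceptor and eye genes (grey). chp, Arr1, trpl, inaD and inaC lie right of 0 and below it, while rdgA and laza lie near the dashed line of equal values.

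A dye effect in Cy5 over Cy3 ratios cannot be told apart from a treatment effect in ratios that had already been turned before deposit. Before any turning, chp was above the array median on 6 of 6 arrays, inaD on 7 of 8, and trpl and Arr1 on 6 of 8 each, while Galphaq was below it on 8 of 8. Of all tested clones, 1.8% were above it and 3.02% below it on every array before turning. Read as already turned, chp was 0.53 at day 14 and 0.40 at day 10, Arr1 0.55 and 0.34, and trpl 0.42 and 0.39. None of the 14 members passed under that reading either, and rdgA was then at -0.04 and 0.01, with a dye term of 0.81 (limma adjusted p = 0.0266). That dye term is in essence rdgA's mean of both days, read with the signs of the swapped arrays reversed. It is no further call, and no share of all clones was counted for it.

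Other photoreceptor and eye genes were read from a further list of 34 genes, of which 12 met the rule and 11 were tested on 13 clones. None of the 13 passed at day 14, day 10 or for their difference, and their medians were -0.12 at day 14 and -0.01 at day 10. The highest at day 10 were pr, an enzyme of eye pigment synthesis, at 0.23 ± 0.11, and Pdh, a retinol dehydrogenase of pigment cells, at 0.16 ± 0.20 (limma adjusted p = 0.274 and 0.716). The lowest were a clone of Cnx99A, a calnexin that Rh1 needs, at -0.30 ± 0.20, and t, the hydrolase that frees histamine for reuse by photoreceptors, at -0.26 ± 0.10 (adjusted p = 0.458 and 0.195). t had -0.48, -0.17 and -0.23 on day-14 replicates 1, 3 and 4 and -0.25, -0.33, -0.40 and -0.07 at day 10. It was the 1 clone of the 13 below the array median on every array measured, as 4.97% of tested clones were. Without any centring of arrays, t and crb, a polarity gene of the rhabdomere stalk, passed as lower at day 10 at -0.48 and -0.42 (limma adjusted p = 0.0186 and 0.0435), where 14% of all clones passed, 13.6% as lower. With print-block medians subtracted, t also passed at day 10 at -0.46 (adjusted p = 0.0360), where 2.34% of all clones passed as lower, and for the mean of both days at -0.38 (adjusted p = 0.0200), where 5.39% did. If the deposited ratios were turned before deposit, the day-10 values were -0.01 for pr, 0.68 for Pdh, 0.10 for that Cnx99A clone and -0.03 for t, and none of the 13 passed.

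Markers of other cells in the head included clones that passed at day 10. Of 5 tested fat body clones, 3 were lower in treated heads, namely Lsp2 at -0.90, Obp99b at -0.91 and 1 clone of apolpp at -1.07 (limma adjusted p = 0.0283, 0.0276 and 0.0116), where 2.19% of all clones were lower. The median of the 5 was -0.90. The other apolpp clone was at -0.68 and did not pass (limma adjusted p = 0.0563). Its dye term of 1.555 did pass (limma adjusted p = 0.0463), where 0.307% of all clones did. Yp2 lay on the other side at 0.69 (adjusted p = 0.15), with 1.91 and 0.87 on day-10 replicates 1 and 2 and -0.26 on replicate 4. The untested clones of Yp1, Yp3 and Fbp2 averaged -0.01, -0.06 and 0.03 at day 10. Untested clones of Obp99b and Fbp1 averaged -0.24 and -0.21, and another Fbp1 clone had 1.16 on its 1 day-10 array. Of 4 glial clones, 1 was lower, Tret1-1 at -0.71 (limma adjusted p = 0.0105), and the median was -0.48. None of 3 muscle and 5 antennal clones passed, and nSyb, the only pan-neuronal clone tested, was at 0.47 (adjusted p = 0.140). nSyb had 1.47 and 0.89 on day-10 replicates 1 and 2, in Cy5, and -0.46 and -0.01 on replicates 3 and 4, in Cy3. Its dye term over both days was 0.93 ± 0.23 (limma adjusted p = 0.0922). At day 14 no marker clone passed. For the mean of both days, 3 of 5 fat body, 2 of 4 glial and 1 of 5 antennal clones passed as lower, where 4.89% of all clones did. The glial ones were Tret1-1 at -0.64 and alrm at -0.49, and the antennal one was a clone of Obp56d at -0.30. Ratios carry no level, so no summed marker level can be given, and the part of these cells in the values of the photoreceptor genes was not tested.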

How the data were processed

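Each of 8 two-colour cDNA arrays, 4 per day, held 1 pool of treated and 1 pool of control heads. Per the submitters' design text, the authors quantified scanned images, applied a ratio-based normalization and filtered spots on signal, saturation, uniformity and flags. The deposited values are log2 ratios, 1 per spot. The log base and the direction are not stated in the sources used here: log2 was read from the values, and the direction was taken as Cy5 over Cy3 from the labels. Scanner intensities were not used here, so signal over background is unknown, and the number of arrays limits the precision.

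All 7609 annotated pairs of adjacent spots named 1 gene set each, so pairs were averaged, which made 13824 clones of 27648 spots, 7558 of them with 1 gene. Of these, 7447 took current symbols from RefSeq by gene ID. The 4 swapped arrays were turned and each array's median was subtracted. limma 3.58.1 in R 4.3.3 fitted both days with a common dye term, on clones with at least 3 arrays of each day. P-values were adjusted by Benjamini-Hochberg over all 4563 clones, with a threshold of 0.05, and the fit was tested on simulated data. Alternatives were other centrings, filters and fits, the other reading of the ratio, and each array left out.

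Replicates are pools of heads. The member genes, lists and settings were chosen with earlier results of these data known. Array-by-array values are given for members past the threshold, for the 3 highest and 3 lowest at each day and for genes with several clones. Of the eye and marker lists, clones past the threshold on either day or for the difference and the extremes at day 10 are named. Marker calls for the mean of both days were added after they were seen. trpl, inaD, chp and rdgBbeta values by array or dye were added after they were seen. Genes with no named clone were not analysed here.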

Additional observations from a re-analysis of the deposited data

Results flagged for a closer look

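trpl, the second light-sensitive channel gene, had 1 array far from the others of its day. Its ratios were 0.33, 0.23, -1.230 and 0.21 on day-10 replicates 1 to 4, so replicate 3 was the low one. The gap from replicate 3 to its nearest neighbour took a share of 0.927 of the group's whole range, above Dixon's 95% critical value for 4 samples. It was 1 such group among 22 groups of 4 arrays that were looked at, and chance picks about 1 in 20. At day 14 the same replicate number was also the lowest, at -1.003, against 0.55, -0.30 and -0.44 on replicates 1, 2 and 4. Low values on day-10 replicate 3 were not particular to trpl. There 0 of 4 clones of the channel group lay above 0, with a median of -0.74, and Arr1 and chp stood at -0.78 and -0.58. Of 15 member clones with a ratio on that array, 7 lay above 0, as did 2555 of all 5239 clones meeting the rule. The cause was not tested.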

How the results depend on the processing

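No member passed at day 10 under any setting tried, nor at day 14 except when day 14 was fitted alone, where 3 of 14 passed (pinta -0.435, rdgA 0.443 and laza 0.360, limma adjusted p = 0.0345, 0.0465 and 0.0383), as did 531 of all clones (11.6%), and 2 clones passed at day 10 alone. The 138 calls among all clones at day 10 became 638 as deposited, 60 with local centring, 54 from 2 arrays of each day, 57 without a dye term and 1 read as already turned. With 1 array left out they ran from 3 (without day-10 replicate 1) to 143, with 58 and 57 without day-10 replicates 2 and 4, 90 without replicate 3 and 55 without day-14 replicate 3 or 4. Scaling the arrays to 1 spread gave 2 calls at day 14. The members' median was -0.227 at day 10 as deposited, where arrays were not centred, and -0.273 at day 14 on the 9 members measured on all 8 arrays.

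For the mean of both days, 0 members passed with print-block centring or read as already turned, and 0 to 1 with 1 array left out. rdgA did not pass as deposited (limma adjusted p = 0.0541). pinta passed there (-0.381, 0.0274) and on clones with all 8 arrays (0.0448), and Arr1 passed without day-14 replicate 1 (-0.382, 0.0499). The shares of all clones passing as lower in those settings were not counted. In the main fit the share was 4.89%.

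Of 287 values of the members' ratios and means under the other settings, 244 kept their direction and their side of the threshold, as did 224 of 240 with 1 array left out. The 240 include arrays of the other day, and arrays where the clone had no ratio and its estimate could not change. That count is therefore no measure of stability. Signs turned as follows, all for ratios that had not passed except rdgA's mean of both days. As deposited, day-10 values were -0.043 for Galphaq, -0.118 for inaD, -0.071 for inaC and -0.220 for Pis, with inaD 0.026 at day 14. Print-block centring gave Galphaq -0.108, inaD -0.030, inaC -0.053 and rdgB 0.038 at day 10, and inaD 0.160 and Pis -0.076 at day 14. Local centring gave Galphaq -0.120, inaD -0.019 and inaC -0.344 at day 10, and inaD 0.084 and rdgC -0.087 at day 14. Scaling gave rdgC 0.003 at day 10 and Pis -0.004 at day 14, and chp was 0.058 at day 10 without a dye term. Read as already turned, day-14 values were -0.198 for Galphaq, 0.209 for trp, 0.421 for trpl, 0.288 for inaD, 0.551 for Arr1, -0.278 for rdgC, -0.042 for rdgA and -0.188 for laza. Day-10 values were -0.319 for Galphaq, 0.228 for trp, 0.394 for trpl, 0.340 for Arr1, -0.133 for Pis and 0.405 for chp, and rdgA's mean of both days was -0.015. With 1 array left out, day-14 values ran from -0.056 to 0.070 for Galphaq, -0.291 to 0.075 for trp, -0.110 to 0.045 for inaD and -0.079 to 0.071 for Pis. Day-10 values ran from -0.014 to 0.313 for Galphaq, -0.408 to 0.170 for trpl, -0.118 to 0.068 for rdgC, -0.129 to 0.053 for rdgB and -0.189 to 0.093 for Pis. The causes were not tested.

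With the replicate number as a block, 0 of 14 members and 0 of 4444 clones passed for the difference between days. Same-numbered arrays correlated at 0.0997, 0.265, 0.157 and 0.252 over 1881 clones, and day-14 replicate 1 correlated best with day-10 replicate 2 (0.187). No dye term was removed before these correlations. They were 0.0767 to 0.265 between arrays of the same dye orientation and -0.297 to -0.0869 between opposite orientations. They therefore could not show whether the numbers mark pairs, and the numbers were not taken as pairs. Signal over background is unknown for these ratios, so its limit on any value could not be given.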
